A study of Homo sapiens with 18 samples.

Results

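Cells build cholesterol and fatty acids from the same precursor, acetyl-CoA, and 30 genes of those routes are described here, chosen by name among the 57445 genes of a count table of 18 RNA sequencing libraries. They are 6 enzymes of the mevalonate segment, 11 enzymes from squalene to cholesterol, 5 regulators or carriers, and 8 genes of fatty acid synthesis and desaturation. All libraries come from MiaPaCa-2, an established human pancreatic cancer cell line with a genotype labelled WT in every group. Titles of the parental libraries also carry the tag MiaFRFP, which is not explained there, so whether a reporter or other insert was added cannot be read from the labels. The parental group (3 libraries) was kept in vitro and never injected. Cells injected into the sciatic nerve and harvested after the first passage gave a lagger group (3 libraries) and a leader group (3 libraries), names that the labels do not define further. Part of the leaders was grown in vitro, injected again and harvested again, which gave leader groups of passages 2, 3 and 4 (3 libraries each). The labels state neither the host animal nor how many animals or cultures stand behind a group, nor whether RNA was taken before or after growth in vitro. All cells descend from a single line, passages 2 to 4 descend from earlier leaders, and p-values therefore measure only the spread between these libraries, which may be technical.

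In the mevalonate route HMG-CoA is formed, reduced and phosphorylated to isoprenoid units that are joined into squalene, and squalene is closed into lanosterol and trimmed to cholesterol. The genes of this route share a transcriptional control: when sterols are scarce, SCAP carries the SREBP proteins, encoded by SREBF1 and SREBF2, from the endoplasmic reticulum to the Golgi, where their active part is cut free and enters the nucleus. When sterols are plentiful, INSIG proteins hold SCAP back, and INSIG1 is itself a target of SREBP. SREBF1 is best known for fatty acid genes and SREBF2 for sterol genes, and pancreatic tumours are among those in which lipid synthesis is studied as a feature of growth.

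Gene totals were 15113462 to 39373248 counts per library. Levels are given in CPM, counts set against a library size that was itself adjusted with the TMM method of edgeR, and a change is the log2 fold change of edgeR's quasi-likelihood test with its standard error (SE), called at a Benjamini-Hochberg adjusted p under 0.05 over 16187 tested genes. Mitochondrially encoded genes took 0.472% to 0.873% of gene counts in parental libraries and 1.95% to 8.57% in injected ones, and reads with several alignments 13.9% to 16.4% and 20.2% to 32.6% of all entries. Passage 3 leader replicate 2 stood apart, with 24.8% unaligned reads and 21021 CPM of the globin gene HBB against at most 1.25 CPM in any other library. Parental replicate 3 stood apart within its group for several members, as given below. The epithelial keratins KRT8 and KRT18 averaged 2465 and 2419 CPM in the parental line and 5845 to 9977 CPM in injected groups, where both were called higher in each. Of 6 tested line and epithelial markers 3, 4, 5, 4 and 3 were higher in laggers and then leaders by passage, and none was lower. EPCAM and CDH1, markers of epithelial cell contact, averaged at most 0.170 and 8.68 CPM, which gives their level and not the direction of a change. Over the 6 tested markers the log2 fold changes in leaders of passage 1 ran from 0.197 to 10.8. In these bulk libraries fewer cells of a type and less RNA per cell cannot be told apart.

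Of the 30 members, 29 passed the filter on low counts. STARD4, a cytosolic sterol carrier, had 0 counts in all 18 libraries, where 3 counts, the limit that a count of 0 allows, would be 0.0746 to 0.210 CPM. Its exons overlap those of STARD4-AS1 on the other strand, which held 5 counts. The library kit does not mark strand, so reads there may have been left out by the counting, which that limit does not cover. In the parental line the levels per kilobase of exon ran from 146 ± 12.1 CPM per kilobase for ACLY (SD, n = 3), 134 ± 15.1 for SCD, 76.4 ± 31.1 for SREBF1, 52.6 ± 6.80 for FDPS and 50.3 ± 10.4 for DHCR7 down to 1.03 ± 0.633 for SC5D and 1.01 ± 0.175 for ELOVL6. ACLY and SCD, next to each other in that order, lay within their spread, as did FDPS and DHCR7, and SC5D and ELOVL6.

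After injection, most calls among sterol enzymes were rises and most calls among fatty acid genes were falls. Laggers had 8 of 29 members higher than the parental line and 6 lower, where 39.3% of all tested genes were called (21.5% higher and 17.8% lower). Leaders of passage 1 had 13 higher and 9 lower against a background of 45.7% (23.2% and 22.4%). Leaders of passage 2 had 10 higher and 6 lower against 29.9% (15.1% and 14.8%), those of passage 3 had 5 and 4 against 24.6% (13.8% and 10.8%), and those of passage 4 had 7 and 7 against 27.7% (14.8% and 12.9%). The 5 comparisons share the 3 parental libraries and are not independent of each other. Of the 17 sterol enzymes, 6, 11, 9, 4 and 6 were higher in laggers and in leaders of passages 1 to 4, with median log2 fold changes of 0.72, 0.90, 0.72, 0.56 and 0.41 beside 0.09, 0.07, 0.00, 0.01 and 0.03 for all tested genes. LSS was the sterol enzyme called lower, in laggers and in leaders of passages 1 and 2. Of the 8 fatty acid genes, ELOVL6 was the single one called higher, in each of the 5 groups, and 4, 6, 4, 3 and 6 were lower. Single libraries moved these counts, and a smaller share of all tested genes was called as well when 1 was left out (share in brackets). Without parental replicate 3, members higher and lower were 10 and 3 in laggers (32.2%), 9 and 1 in passage 2 (18.9%), 4 and 1 in passage 3 (15.4%) and 4 and 7 in passage 4 (17.9%). Without parental replicate 1 they were 3 and 4 in passage 3 (19.1%) and 3 and 7 in passage 4 (21.6%). Laggers had 13 and 5, 8 and 4, and 10 and 8 without their replicate 1, 2 or 3 (36.4%, 31.5% and 38.2%). Passage 2 had 8 and 3, 9 and 3, and 8 and 1 without leader replicate 1, 2 or 3 (22.7%, 22.2% and 19.0%), and passage 3 had 5 and 1 without leader replicate 1 (14.8%). Passage 4 had 3 and 7 without leader replicate 1 (19.4%) and 4 and 7 without leader replicate 2 (3024 of 16800 genes).

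Base composition moved with these changes. Across the 29 members the log2 fold change and the GC content of the longest transcript had a Pearson's r of -0.52 for laggers and, going from passage 1 to 4 of the leaders, -0.72, -0.71, -0.63 and -0.62, against -0.09, -0.22, -0.20, -0.15 and -0.20 across all 15970 tested genes with a value. These are descriptions across genes that share the same libraries. A fit with offsets for GC content and transcript length, added after the data were seen, gave 12 members higher and 3 lower in laggers, where 45.3% of all genes were called (24.3% higher and 21.0% lower). It gave 18 and 1 in leaders of passage 1 (46.1%, with 24.5% and 21.6%), 12 and 1 in passage 2 (33.9%, with 18.6% and 15.3%), 9 and 4 in passage 3 (31.8%, with 17.7% and 14.1%) and 8 and 6 in passage 4 (34.0%, with 18.9% and 15.1%). Sterol enzymes then were higher in 10, 14, 10, 7 and 6 of 17 cases and lower in none. Fatty acid genes then were higher in 1, 2, 1, 1 and 1 of 8 cases and lower in 3, 1, 1, 3 and 5. Of the lower calls made without offsets, 3 of 6, 1 of 9, 1 of 6, 3 of 4 and 6 of 7 were kept, and ACLY was kept in each group. The part of base composition in the changes of single genes was not tested beyond that fit, and where it ends a call this is given with the gene. The plot of fold change against GC content shows both fits for leaders of passage 1.

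**Figure D1:**
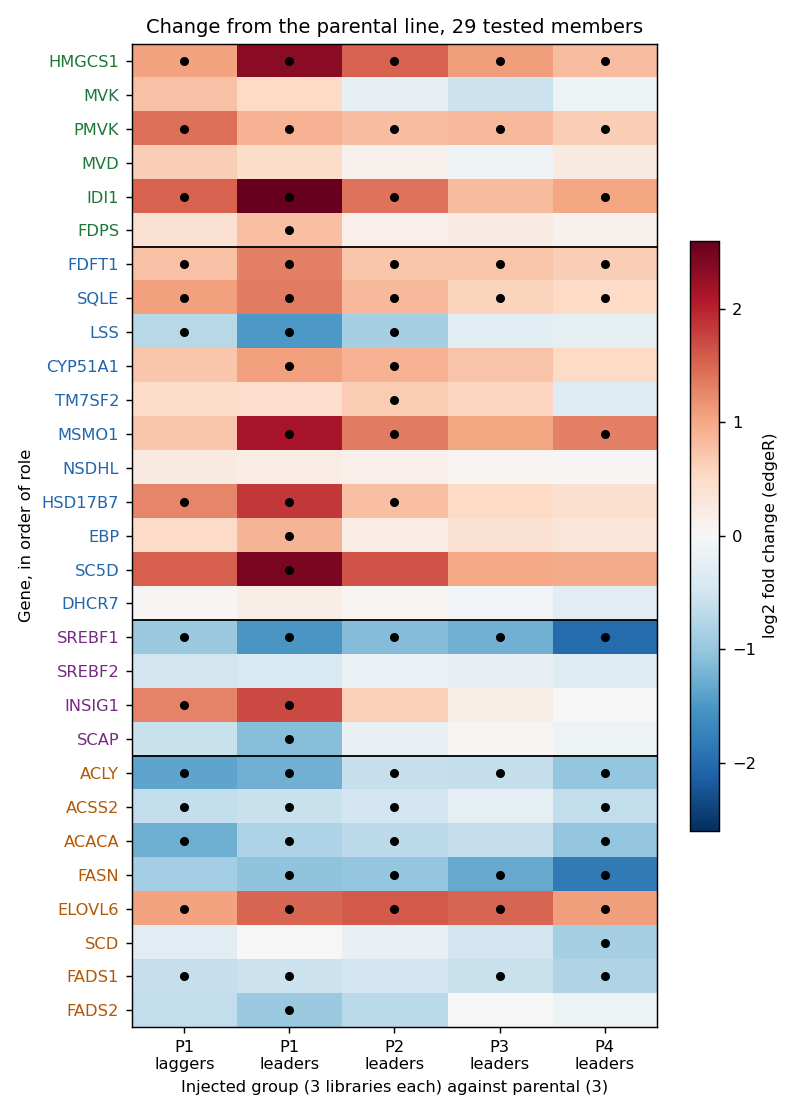
Log2 fold change from the parental line (colour) of the 29 tested members (rows, grouped by role and separated by lines) in the 5 injected groups (columns, 3 libraries each against 3 parental libraries), with dots where the edgeR adjusted p was under 0.05. The mevalonate and squalene rows are mostly red, with the strongest changes in leaders of passage 1, while the fatty acid rows are mostly blue apart from ELOVL6.

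**Figure D2:**
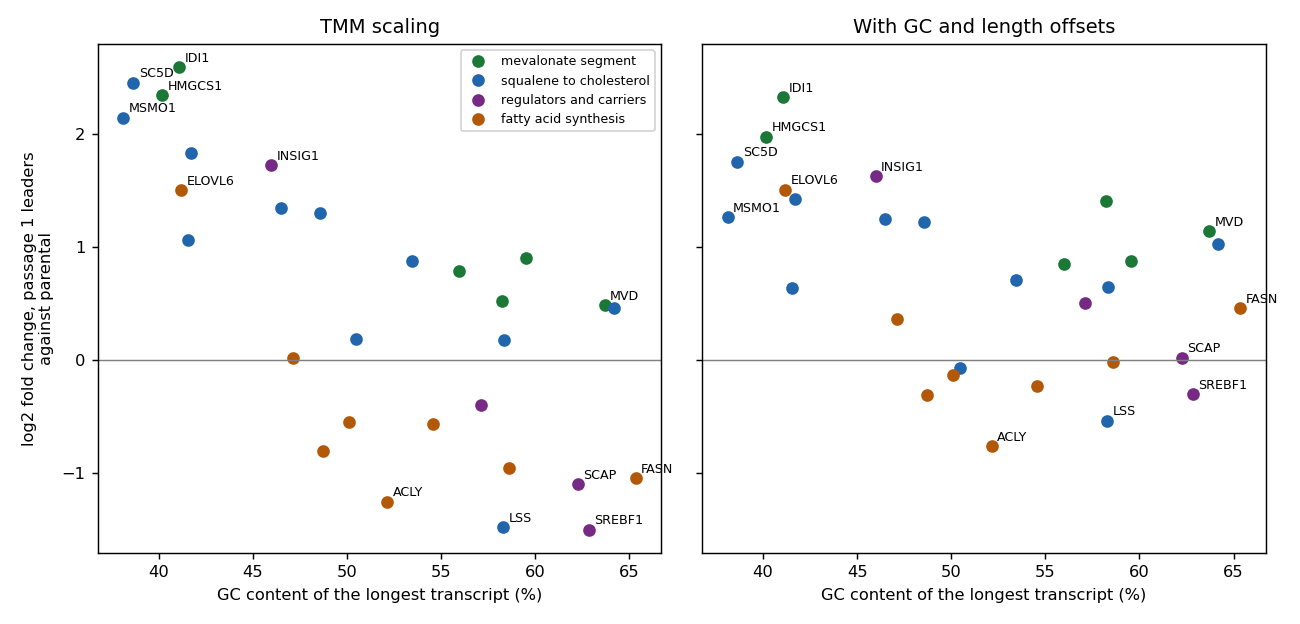
Log2 fold change of leaders of passage 1 against the parental line (vertical axis) by GC content of the longest transcript in percent (horizontal axis) for the 29 tested members, coloured by role, in the fit with scaling alone (left) and with GC and length offsets (right). Pearson's r across members is -0.72 on the left and -0.49 on the right, and SCAP and FASN move from below 0 on the left to 0.02 and 0.46 on the right.

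The 4 members with the largest called falls between passages 1 and 4 are given here by the 250 bases before an annotated start, together with LSS, which went the other way, and SREBF2, the single member whose windows held the sterol regulatory element searched. They are reference sequences of RefSeq on GRCh38.p14, read 5′ to 3′ on the strand of the gene, and 27 of the 30 members had an entry. For the genes with several annotated starts, HMGCS1 (2) and IDI1 (3), the window with the most motif matches was taken. Capitals mark TCACNCCAC (a sterol regulatory element), CACGTG (the E-box), CCAAT (the NF-Y box, which appears as ATTGG on the opposite strand) and GGGCGG (the GC box, CCGCCC on the opposite strand), and adjoining matches can overlap.
HMGCS1, chr5:43313413-43313662 (minus strand): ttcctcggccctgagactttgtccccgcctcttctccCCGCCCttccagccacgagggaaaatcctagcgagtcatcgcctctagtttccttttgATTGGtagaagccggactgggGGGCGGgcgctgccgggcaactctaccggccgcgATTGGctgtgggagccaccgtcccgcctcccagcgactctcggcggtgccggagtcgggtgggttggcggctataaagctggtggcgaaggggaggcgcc
IDI1, chr10:1048887-1049136 (minus strand): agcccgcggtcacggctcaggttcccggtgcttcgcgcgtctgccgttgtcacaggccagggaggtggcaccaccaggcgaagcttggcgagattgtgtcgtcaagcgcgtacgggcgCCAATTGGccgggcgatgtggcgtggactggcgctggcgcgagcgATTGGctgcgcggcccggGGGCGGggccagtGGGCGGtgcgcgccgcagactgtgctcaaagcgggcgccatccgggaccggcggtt
HSD17B7, chr1:162790452-162790701 (plus strand): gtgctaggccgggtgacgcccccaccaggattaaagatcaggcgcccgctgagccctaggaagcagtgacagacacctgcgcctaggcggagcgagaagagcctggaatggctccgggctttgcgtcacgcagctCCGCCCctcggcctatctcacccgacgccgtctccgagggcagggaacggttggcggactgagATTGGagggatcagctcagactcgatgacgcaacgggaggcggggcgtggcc
INSIG1, chr7:155297628-155297877 (plus strand): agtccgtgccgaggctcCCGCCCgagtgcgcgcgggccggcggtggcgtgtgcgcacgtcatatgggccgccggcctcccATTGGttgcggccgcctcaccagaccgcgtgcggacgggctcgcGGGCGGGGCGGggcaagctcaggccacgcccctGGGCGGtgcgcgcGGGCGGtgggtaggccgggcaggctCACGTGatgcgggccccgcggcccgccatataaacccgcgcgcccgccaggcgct
LSS, chr21:46228775-46229024 (minus strand): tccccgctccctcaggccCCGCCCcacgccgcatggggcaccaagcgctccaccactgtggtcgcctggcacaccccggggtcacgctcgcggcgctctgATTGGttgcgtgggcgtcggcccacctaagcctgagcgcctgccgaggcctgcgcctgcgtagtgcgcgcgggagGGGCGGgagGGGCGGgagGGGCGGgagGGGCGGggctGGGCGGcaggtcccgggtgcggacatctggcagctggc
SREBF2, chr22:41832855-41833104 (plus strand): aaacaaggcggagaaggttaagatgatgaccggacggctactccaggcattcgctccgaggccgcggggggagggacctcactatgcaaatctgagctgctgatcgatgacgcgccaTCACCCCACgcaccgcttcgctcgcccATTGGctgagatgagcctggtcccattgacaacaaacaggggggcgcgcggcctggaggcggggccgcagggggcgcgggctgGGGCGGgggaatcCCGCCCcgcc
Of 37 member windows, 64.9% held CCAAT against 32.0% of all 35114 windows of the same length, and 89.2% held GGGCGG against 42.6%. CACGTG was in 10.8% against 6.35%, in windows of INSIG1, SC5D and SCAP. TCACNCCAC was in 2.70% against 0.883%. The window of LSS holds 6 GC boxes and 1 NF-Y box, that of INSIG1 5 GC boxes, 1 NF-Y box and 1 E-box, and those of HMGCS1 and IDI1 hold 2 and 3 NF-Y boxes and 2 GC boxes each. A match describes letters in a window and does not show binding.

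Without offsets the largest rises among mevalonate enzymes were those of HMGCS1 and IDI1 in leaders of passage 1, the group in which both stood highest. With the offsets both stayed called there, and the median change of the 6 mevalonate enzymes in that group went from 0.84 to 1.27. HMGCS1 encodes the cytosolic synthase that forms HMG-CoA. It measured 14.9, 23.9 and 14.4 CPM in the parental libraries, 40.0, 49.5 and 20.6 in laggers, and 93.6, 101 and 76.7 in passage 1, 46.6, 58.0 and 48.9 in passage 2, 30.5, 36.2 and 46.1 in passage 3 and 36.5, 29.5 and 27.2 in passage 4 of the leaders. The 3 leaders of passage 1 lay above every other library, and laggers overlapped the parental group through their replicate 3. Its log2 fold changes from the parental line were 1.05 ± 0.29 in laggers and, for leaders of passages 1 to 4, 2.35 ± 0.30, 1.53 ± 0.29, 1.08 ± 0.29 and 0.81 ± 0.28 (± SE; edgeR adjusted p = 0.00871, 1.84e-05, 0.00108, 0.0117 and 0.0448). Without lagger replicate 2 the lagger call was lost (log2 fold change 0.77, edgeR adjusted p = 0.0582). The passage 3 call was lost without parental replicate 1 or 3 or without leader replicate 3 (edgeR adjusted p = 0.057 to 0.0596), and the passage 4 call without parental replicate 1 or 3 or any 1 leader library (edgeR adjusted p = 0.0564 to 0.174) and with the offsets (0.53, edgeR adjusted p = 0.0739).

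IDI1 encodes the isomerase that readies isoprenoid units for joining. Its level was 37.0, 50.6 and 16.6 CPM in the parental libraries, 134, 109 and 59.2 in laggers, and 185, 220.3 and 224 in passage 1, 91.4, 82.8 and 102 in passage 2, 68.4, 40.4 and 74.8 in passage 3 and 84.9, 66.3 and 61.2 in passage 4 of the leaders. Leaders of passage 1 were again the highest, at 210.0 ± 21.6 CPM (SD, n = 3) against 34.8 ± 17.1 in the parental line, and passage 3 overlapped the parental line through its replicate 2. Set against the parental line, IDI1 had log2 fold changes of 1.53 ± 0.35 in laggers and 2.59 ± 0.36, 1.41 ± 0.35, 0.82 ± 0.35 and 1.03 ± 0.35 in the successive leaders (± SE; edgeR adjusted p = 0.00293, 4.74e-05, 0.0071, 0.0983 and 0.0378). The passage 4 call was lost without parental replicate 1 or 3 or any 1 leader library (edgeR adjusted p = 0.0521 to 0.146). With the offsets the passage 3 change was called too, at 0.69 (edgeR adjusted p = 0.0137).

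PMVK, the phosphomevalonate kinase, differed from those 2 genes in that laggers stood highest. PMVK counted 55.7, 49.0 and 64.3 CPM in the parental libraries, 131, 144 and 183 in laggers, and 98.2, 123 and 93.1 in passage 1, 102, 91.0 and 100.3 in passage 2, 105, 121 and 77.4 in passage 3 and 84.9, 100.4 and 79.5 in passage 4 of the leaders. No injected library fell into the parental range. For PMVK the test gave 1.44 ± 0.20 in laggers and 0.90 ± 0.20, 0.80 ± 0.19, 0.85 ± 0.20 and 0.65 ± 0.19 from passage 1 to 4 (± SE on the log2 scale; edgeR adjusted p = 5.18e-05, 0.00153, 0.00626, 0.00522 and 0.0208). The passage 4 call was lost without parental replicate 1 or 2 or leader replicate 2 (edgeR adjusted p = 0.0765 to 0.0932).

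FDPS makes farnesyl diphosphate, the last intermediate shared by sterols and other isoprenoids. FDPS reached 225, 182 and 180.2 CPM in the parental libraries, 216, 265 and 292 in laggers, and 347, 365 and 299 in passage 1, 214, 231 and 202 in passage 2, 231, 252 and 195 in passage 3 and 195, 225 and 211 in passage 4 of the leaders. Leaders of passage 1 stood above all other libraries, and every other injected group overlapped the parental line. Against the parental line FDPS came to 0.40 ± 0.16 in laggers and to 0.78 ± 0.16, 0.14 ± 0.16, 0.21 ± 0.16 and 0.10 ± 0.16 in the 4 leader groups (± SE on the log2 scale; edgeR adjusted p = 0.0566, 0.000915, 0.536, 0.369 and 0.667). Of the remaining enzymes in this segment, MVK, the mevalonate kinase, had group means of 5.85 to 14.6 CPM, and MVD, the decarboxylase after PMVK, had 78.1 to 129.5 CPM. Neither was called in any of the 5 comparisons (edgeR adjusted p = 0.0722 to 0.779 for MVK and 0.0696 to 0.824 for MVD). In the fit with offsets both were higher in laggers and in leaders of passage 1, MVK by 1.26 and 1.41 (edgeR adjusted p = 0.000157 and 5.59e-05) and MVD by 0.88 and 1.14 (edgeR adjusted p = 0.000312 and 3.13e-05), and MVD was higher in passages 2 and 4 too (0.71 and 0.75; edgeR adjusted p = 0.0024 and 0.0015). Exons of MVK overlap those of MMAB on the other strand, which held 12314 counts against 4054 for MVK, and the library kit does not mark strand, so their reads cannot be told apart there.

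**Figure D3:**
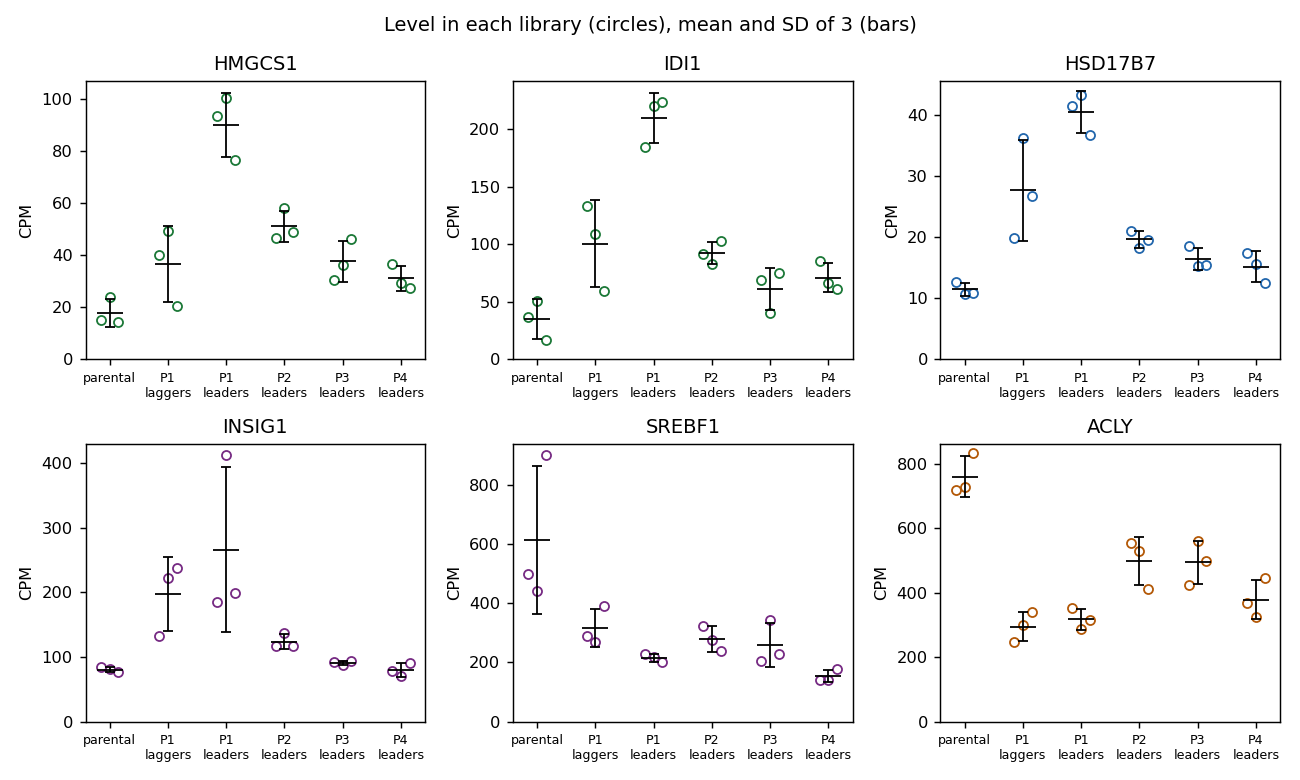
Level in CPM (linear vertical axes from 0) of 6 members in each library (circles) of the 6 groups, with the mean and SD of 3 libraries (bars). HMGCS1, IDI1, HSD17B7 and INSIG1 are highest in leaders of passage 1 and lower in later leaders, SREBF1 is lowest in leaders of passage 4, and ACLY is lower in every injected group than in the parental line.

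From squalene to cholesterol, FDFT1 and SQLE were higher in each injected group, HSD17B7 in laggers and in leaders of passages 1 and 2, and LSS went the other way. FDFT1 encodes squalene synthase, the first enzyme committed to sterols. FDFT1 held 163, 140.1 and 129 CPM in the parental libraries, 235, 268 and 224 in laggers, and 366, 392 and 307 in passage 1, 231, 263 and 217 in passage 2, 240.0, 245 and 224 in passage 3 and 237, 217 and 217 in passage 4 of the leaders. All injected libraries lay above all parental ones, with leaders of passage 1 highest. Its log2 fold changes from the parental line were 0.75 ± 0.15 in laggers and, for leaders of passages 1 to 4, 1.30 ± 0.15, 0.72 ± 0.15, 0.72 ± 0.15 and 0.64 ± 0.15 (± SE; edgeR adjusted p = 0.000845, 7.69e-06, 0.00172, 0.00219 and 0.00434). SQLE encodes squalene epoxidase, a rate-limiting enzyme of the route. SQLE gave 59.9, 54.1 and 66.0 CPM in the parental libraries, 112, 124 and 139.5 in laggers, and 142, 168 and 146 in passage 1, 100.4, 113 and 108 in passage 2, 71.8, 96.3 and 102 in passage 3 and 92.2, 76.3 and 88.0 in passage 4 of the leaders. Again no injected library reached down to the parental range of 54.1 to 66.0 CPM. Set against the parental line, SQLE had log2 fold changes of 1.06 ± 0.16 in laggers and 1.34 ± 0.17, 0.84 ± 0.16, 0.58 ± 0.16 and 0.51 ± 0.16 in the successive leaders (± SE; edgeR adjusted p = 0.000146, 1.53e-05, 0.00137, 0.0161 and 0.0286). The passage 3 call was lost without parental replicate 1 or 2 or leader replicate 3 (edgeR adjusted p = 0.0536 to 0.0785), and the passage 4 call without parental replicate 1 or 2 or leader replicate 1 (edgeR adjusted p = 0.0953 to 0.104).

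HSD17B7 encodes a reductase that acts on sterol intermediates. HSD17B7 showed 12.6, 10.7 and 10.8 CPM in the parental libraries, 19.8, 36.3 and 26.8 in laggers, and 41.6, 43.2 and 36.7 in passage 1, 21.1, 18.2 and 19.6 in passage 2, 18.5, 15.2 and 15.4 in passage 3 and 17.4, 15.6 and 12.5 in passage 4 of the leaders. Early groups were high and later leaders came close to the parental line, with an overlap in passage 4. For HSD17B7 the test gave 1.28 ± 0.22 in laggers and 1.83 ± 0.22, 0.78 ± 0.21, 0.52 ± 0.21 and 0.41 ± 0.21 from passage 1 to 4 (± SE on the log2 scale; edgeR adjusted p = 0.000302, 1.21e-05, 0.0122, 0.0885 and 0.168). The offsets ended the passage 2 call (0.43, edgeR adjusted p = 0.207).

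LSS encodes lanosterol synthase, which closes the sterol ring. LSS ran at 148, 123 and 200.2 CPM in the parental libraries, 68.9, 109.9 and 106 in laggers, and 61.3, 37.2 and 70.0 in passage 1, 76.6, 114 and 69.8 in passage 2, 146, 129 and 112 in passage 3 and 131, 103 and 159 in passage 4 of the leaders. Laggers and leaders of passages 1 and 2 lay below the parental libraries, with leader replicate 2 of passage 1 lowest, whereas passages 3 and 4 overlapped them. Against the parental line LSS came to -0.73 ± 0.28 in laggers and to -1.48 ± 0.28, -0.85 ± 0.28, -0.29 ± 0.27 and -0.26 ± 0.27 in the 4 leader groups (± SE on the log2 scale; edgeR adjusted p = 0.046, 0.00053, 0.0285, 0.489 and 0.513). None of the 3 lower calls held with the offsets (-0.14, -0.54 and -0.25; edgeR adjusted p = 0.644, 0.0718 and 0.448). The lagger call was also lost without parental replicate 1 or 3 or any 1 lagger library (edgeR adjusted p = 0.0535 to 0.182), and the passage 2 call without parental replicate 3 or leader replicate 1 or 3 (edgeR adjusted p = 0.0959 to 0.139).

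TM7SF2 encodes a sterol reductase. TM7SF2 was at 54.5, 45.8 and 68.1 CPM in the parental libraries, 57.6, 91.3 and 84.3 in laggers, and 85.2, 79.0 and 67.5 in passage 1, 104, 76.4 and 85.8 in passage 2, 86.4, 102 and 59.9 in passage 3 and 36.9, 49.0 and 47.8 in passage 4 of the leaders. Passage 2 stood above the parental range and the other groups overlapped it. Its log2 fold changes from the parental line were 0.47 ± 0.23 in laggers and, for leaders of passages 1 to 4, 0.46 ± 0.23, 0.66 ± 0.23, 0.56 ± 0.23 and -0.33 ± 0.23 (± SE; edgeR adjusted p = 0.12, 0.116, 0.0414, 0.0908 and 0.312). That call was lost without parental replicate 1 or 2 or leader replicate 1 or 3 (edgeR adjusted p = 0.085 to 0.151). With the offsets TM7SF2 was called higher in laggers and in leaders of passages 1, 2 and 3 (0.68, 1.02, 1.22 and 1.01; edgeR adjusted p = 0.0061, 0.000278, 0.000115 and 0.000616). Its exons overlap those of VPS51 on the same strand, and such reads may have been left out or split by the counting.

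Of the other 6 enzymes on this stretch, MSMO1, a methylsterol oxidase, was called in most groups. Its group means were 47.7 ± 17.2 CPM in the parental line, 211 ± 42.4 in leaders of passage 1 and 118 ± 34.2 in leaders of passage 4 (SD, n = 3). MSMO1 was called in leaders of passages 1, 2 and 4 (2.14 ± 0.38, 1.35 ± 0.37 and 1.31 ± 0.37; edgeR adjusted p = 0.000323, 0.0125 and 0.0157). Without parental replicate 3 the passage 2 call was lost (edgeR adjusted p = 0.0659), and the passage 4 call was lost without that library or leader replicate 1 (edgeR adjusted p = 0.0739 to 0.0781). Under the offsets MSMO1 was at 1.26, 0.74 and 0.80 in those groups (edgeR adjusted p = 8.4e-05, 0.00742 and 0.00455). SC5D, a sterol desaturase, rose in leaders of passage 1 from 5.76 ± 3.52 to 31.7 ± 3.23 CPM (2.45 ± 0.65; edgeR adjusted p = 0.00609) and varied widely elsewhere, with 1.74 CPM in parental replicate 3, 3.36 in lagger replicate 3 and 4.21 in passage 3 leader replicate 2. Its passage 1 change was 1.75 under the offsets (edgeR adjusted p = 0.0027). CYP51A1, the lanosterol demethylase, was called in leaders of passages 1 and 2 (1.06 ± 0.29 and 0.91 ± 0.29; edgeR adjusted p = 0.00803 and 0.0288). With the offsets neither call held (0.64 and 0.52; edgeR adjusted p = 0.229 and 0.371), and the passage 2 call was lost without 5 of the 6 libraries in turn, all but parental replicate 3 (edgeR adjusted p = 0.0556 to 0.0963). EBP, a sterol isomerase, was called in leaders of passage 1 (0.87 ± 0.23; edgeR adjusted p = 0.00623). NSDHL, a sterol dehydrogenase, and DHCR7, the reductase that can take the last step to cholesterol, were called in none of the 5 comparisons, with group means of 58.2 to 68.5 CPM and 174 to 236 CPM. The 95% interval of the change in leaders of passage 1 was -0.19 to 0.55 for NSDHL and -0.38 to 0.73 for DHCR7. In the fit with offsets DHCR7 was called higher in leaders of passages 1 and 2 (0.64 and 0.42; edgeR adjusted p = 0.00306 and 0.0447).

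Among the regulators, INSIG1 rose at the first passage and SREBF1 fell in all injected groups without offsets. INSIG1 read 83.9, 81.0 and 77.1 CPM in the parental libraries, 132, 222 and 237 in laggers, and 186, 413 and 199 in passage 1, 117, 137 and 117 in passage 2, 92.9, 87.3 and 93.4 in passage 3 and 79.0, 70.4 and 91.4 in passage 4 of the leaders. Every library of passage 1, lagger or leader, lay above every parental one, with leader replicate 2 highest, and passage 4 overlapped the parental line. Set against the parental line, INSIG1 had log2 fold changes of 1.29 ± 0.27 in laggers and 1.72 ± 0.27, 0.62 ± 0.26, 0.18 ± 0.26 and -0.01 ± 0.26 in the successive leaders (± SE; edgeR adjusted p = 0.00141, 0.00012, 0.0887, 0.673 and 0.995). SREBF1 had 499, 441 and 899 CPM in the parental libraries, 289.9, 269 and 390.4 in laggers, and 228, 219 and 202 in passage 1, 324, 277 and 238 in passage 2, 205, 345 and 229 in passage 3 and 142, 142 and 177 in passage 4 of the leaders. Parental replicate 3 was far above the other parental libraries, and no injected library reached the parental range. For SREBF1 the test gave -0.96 ± 0.26 in laggers and -1.50 ± 0.26, -1.13 ± 0.26, -1.24 ± 0.26 and -2.00 ± 0.27 from passage 1 to 4 (± SE on the log2 scale; edgeR adjusted p = 0.00814, 0.000266, 0.00398, 0.00267 and 6.61e-05). Without parental replicate 3 the lagger change was -0.58 (edgeR adjusted p = 0.0606). With the offsets the calls in laggers and in leaders of passages 1 and 2 were lost (-0.16, -0.30 and -0.26; edgeR adjusted p = 0.318, 0.0621 and 0.131), and those of passages 3 and 4 were kept (-0.57 and -1.26; edgeR adjusted p = 0.00309 and 3.35e-06). Exons of SREBF1 overlap RAI1 on the other strand, which held 21112 counts against 142634.

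SCAP showed 172, 156 and 275 CPM in the parental libraries, 117, 122 and 167 in laggers, and 89.3, 99.2 and 92.3 in passage 1, 171, 206 and 151 in passage 2, 159.7, 265 and 189.8 in passage 3 and 176, 139 and 234 in passage 4 of the leaders. Leaders of passage 1 were below all parental libraries, and the other groups overlapped them. Against the parental line SCAP came to -0.57 ± 0.25 in laggers and to -1.10 ± 0.25, -0.19 ± 0.25, 0.03 ± 0.25 and -0.13 ± 0.25 in the 4 leader groups (± SE on the log2 scale; edgeR adjusted p = 0.0835, 0.00237, 0.608, 0.948 and 0.731). With the offsets the passage 1 change was 0.02 (edgeR adjusted p = 0.925), and passages 2, 3 and 4 were called higher (0.62, 0.65 and 0.52; edgeR adjusted p = 0.0011, 0.000924 and 0.00377). SREBF2 was not called, with group means of 142 to 198 CPM and an edgeR adjusted p = 0.178 to 0.717. With the offsets it was called higher in leaders of passage 1, by 0.51 (edgeR adjusted p = 0.0169).

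Without offsets most called fatty acid genes were lower than in the parental line, with ELOVL6 as the exception. With the offsets 2 were higher and 1 lower in leaders of passage 1, and 1 was higher and 1 lower in passage 2. ACLY encodes the lyase that makes cytosolic acetyl-CoA from citrate and so feeds both routes. ACLY measured 719.9, 728 and 833 CPM in the parental libraries, 248, 299 and 339 in laggers, and 352, 287 and 315 in passage 1, 554, 529.7 and 413 in passage 2, 426, 559.8 and 499 in passage 3 and 367, 324 and 445 in passage 4 of the leaders. Every injected library lay below every parental one, and the 2 groups of passage 1 had the lowest means, with some overlap with passage 4. Its log2 fold changes from the parental line were -1.37 ± 0.18 in laggers and, for leaders of passages 1 to 4, -1.26 ± 0.18, -0.61 ± 0.17, -0.62 ± 0.17 and -1.005 ± 0.18 (± SE; edgeR adjusted p = 3.24e-05, 4.63e-05, 0.0155, 0.0166 and 0.000631). The calls in passages 2 and 3 were lost without parental replicate 3, and also without leader replicate 3 of passage 2 or leader replicate 1 of passage 3 (edgeR adjusted p = 0.0606 to 0.0866). All 5 calls were kept with the offsets, at -1.07, -0.77, -0.36, -0.48 and -0.74 (edgeR adjusted p = 1.75e-06 to 0.0137).

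ACACA encodes the carboxylase that makes malonyl-CoA, the rate-limiting step of fatty acid synthesis. ACACA gave 81.4, 103 and 109 CPM in the parental libraries, 33.0, 44.4 and 44.8 in laggers, and 49.1, 71.1 and 47.8 in passage 1, 71.6, 67.1 and 45.4 in passage 2, 53.8, 61.5 and 75.9 in passage 3 and 47.2, 41.7 and 55.9 in passage 4 of the leaders. All injected libraries were below the lowest parental library. Set against the parental line, ACACA had log2 fold changes of -1.27 ± 0.23 in laggers and -0.81 ± 0.23, -0.67 ± 0.23, -0.62 ± 0.23 and -1.02 ± 0.23 in the successive leaders (± SE; edgeR adjusted p = 0.00051, 0.00875, 0.0343, 0.0567 and 0.00384). The passage 2 call was lost without parental replicate 2 or 3 or leader replicate 2 or 3 (edgeR adjusted p = 0.0571 to 0.161). With the offsets the calls in passages 1 and 2 were lost (-0.31 and -0.42; edgeR adjusted p = 0.129 and 0.0593), and those in laggers and passage 4 were kept (-0.94 and -0.86; edgeR adjusted p = 0.000303 and 0.000876).

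ELOVL6 encodes the elongase that adds carbons to palmitate. ELOVL6 stood at 7.04, 8.78 and 6.29 CPM in the parental libraries, 19.8, 14.5 and 11.3 in laggers, and 20.4, 23.3 and 19.2 in passage 1, 22.4, 25.0 and 19.7 in passage 2, 25.4, 17.1 and 20.7 in passage 3 and 15.8, 16.6 and 14.6 in passage 4 of the leaders. No injected library overlapped the parental range. For ELOVL6 the test gave 1.04 ± 0.23 in laggers and 1.50 ± 0.23, 1.60 ± 0.23, 1.51 ± 0.23 and 1.09 ± 0.23 from passage 1 to 4 (± SE on the log2 scale; edgeR adjusted p = 0.0021, 9.68e-05, 0.000119, 0.000228 and 0.00253). No single library and no offset ended any of these 5 calls.

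SCD makes monounsaturated fatty acids such as oleate. SCD counted 772, 753 and 624 CPM in the parental libraries, 698, 570.2 and 498 in laggers, and 767, 818 and 584 in passage 1, 678, 674 and 523 in passage 2, 451, 515 and 553 in passage 3 and 525, 310.4 and 344 in passage 4 of the leaders. Passages 3 and 4 lay below the parental libraries and the earlier groups overlapped them. Against the parental line SCD came to -0.28 ± 0.21 in laggers and to 0.01 ± 0.21, -0.20 ± 0.21, -0.50 ± 0.21 and -0.87 ± 0.21 in the 4 leader groups (± SE on the log2 scale; edgeR adjusted p = 0.292, 0.966, 0.505, 0.0902 and 0.00612). FADS2 encodes a desaturase of polyunsaturated fatty acids. FADS2 was at 25.2, 18.6 and 24.0 CPM in the parental libraries, 10.3, 11.4 and 21.6 in laggers, and 13.4, 11.6 and 9.92 in passage 1, 11.9, 16.9 and 13.1 in passage 2, 18.8, 28.5 and 21.4 in passage 3 and 19.8, 17.9 and 24.2 in passage 4 of the leaders. Leaders of passages 1 and 2 lay below the parental range, while laggers, through their replicate 3, and passages 3 and 4 overlapped it. Its log2 fold changes from the parental line were -0.65 ± 0.28 in laggers and, for leaders of passages 1 to 4, -0.96 ± 0.28, -0.69 ± 0.28, 0.02 ± 0.27 and -0.13 ± 0.27 (± SE; edgeR adjusted p = 0.0728, 0.0102, 0.0679, 0.969 and 0.761). Under the offsets the passage 1 change was -0.02 (edgeR adjusted p = 0.935). FADS2 shares exons with FADS1 on the other strand and with FEN1 on its own, which held 53087 and 48961 counts against 8081, so its values are uncertain.

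The other 3 fatty acid genes had lower calls as well. FASN, the fatty acid synthase, was called lower in all leader groups (-1.05 ± 0.36, -1.01 ± 0.36, -1.30 ± 0.36 and -1.85 ± 0.37; edgeR adjusted p = 0.0249, 0.0437, 0.0152 and 0.00164). Parental replicate 3 held 345 CPM of FASN against 131 and 138 CPM in the other parental libraries. Without it the 4 changes were -0.45, -0.40, -0.70 and -1.24, and only passage 4 was called (edgeR adjusted p = 0.262, 0.392, 0.136 and 0.0101). Leaving out leader replicate 1 or 3 of passages 1 and 3, or any 1 leader library of passage 2, also ended those calls (edgeR adjusted p = 0.0581 to 0.135). With the offsets FASN was higher in leaders of passage 1 (0.46, edgeR adjusted p = 0.0289), not called in passages 2 and 3 (0.15 and -0.43; edgeR adjusted p = 0.491 and 0.0501) and lower in passage 4 (-0.93, edgeR adjusted p = 0.000415). FADS1 was called lower in laggers and in passages 1, 3 and 4 (-0.61, -0.55, -0.57 and -0.78; edgeR adjusted p = 0.0192, 0.0263, 0.0389 and 0.00679). ACSS2, which makes acetyl-CoA from acetate, was called lower in laggers and in passages 1, 2 and 4 (-0.64, -0.57, -0.49 and -0.64; edgeR adjusted p = 0.00874, 0.014, 0.0429 and 0.0134). The FADS1 call of passage 3 and the ACSS2 call of passage 2 were lost without any 1 of their 6 libraries (edgeR adjusted p = 0.0536 to 0.146 and 0.0637 to 0.135). FADS1 also lost its call in laggers without parental replicate 3 or lagger replicate 2, and in passage 1 without parental replicate 3 or leader replicate 2 or 3 (edgeR adjusted p = 0.0693 to 0.18). ACSS2 lost its call in passage 1 without leader replicate 1 or 3 and in passage 4 without leader replicate 3 (edgeR adjusted p = 0.0516 to 0.062). With the offsets FADS1 stayed called in passages 3 and 4 (-0.46 and -0.57; edgeR adjusted p = 0.0313 and 0.00892) and ACSS2 in laggers (-0.50, edgeR adjusted p = 0.0267).

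Leaders and laggers of passage 1 were both harvested after the first passage, and their contrast asks how the cells named leaders differ from those named laggers. None of the 29 members was called by edgeR, where 10 of 16187 genes (0.0618%) were, 0.0185% higher and 0.0432% lower in leaders. An unadjusted p under 0.05 was reached by 9 of the 29 members and by 2338 of all 16187 genes. HMGCS1 stood at 90.3 ± 12.3 CPM in leaders and 36.7 ± 14.7 in laggers, and was not called (1.30 ± 0.29; edgeR adjusted p = 0.0812). MSMO1 (1.42 ± 0.37; edgeR adjusted p = 0.129), IDI1 (1.06 ± 0.35; edgeR adjusted p = 0.219) and FDFT1 (0.55 ± 0.15; edgeR adjusted p = 0.134) had positive changes that were not called either. The uncalled change of PMVK was negative (-0.54 ± 0.19; edgeR adjusted p = 0.256). DESeq2 called HMGCS1, FDFT1 and MSMO1 higher in leaders, where it called 372 genes (2.55%), and the fit with offsets called FDPS, FDFT1 and MSMO1 (0.61, 0.60 and 0.98; edgeR adjusted p = 0.045, 0.0412 and 0.0401), where it called 0.605% of genes (0.352% higher and 0.253% lower). The Pearson's r with GC content across members was -0.83 in this contrast, and -0.49 with the offsets.

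Most of the members called between early and late leaders were sterol enzymes that fell. Between passages 4 and 1 of the leaders, 9 members were lower and 3 higher, where 20.0% of all genes were called (9.17% lower and 10.8% higher). The median change of the 17 sterol enzymes was -0.66 beside -0.02 for all genes. Base composition went with this contrast too. Pearson's r of the change with GC content was 0.55 across members, against 0.06 across all tested genes with a value. With the offsets it was 0.38 across members. Among called members INSIG1 fell most, by 1.73 on the log2 scale (SE 0.27; edgeR adjusted p = 0.000529), followed by IDI1, by 1.57 (SE 0.35; edgeR adjusted p = 0.00596), HMGCS1, by 1.54 (SE 0.29; edgeR adjusted p = 0.00188), and HSD17B7, by 1.42 (SE 0.22; edgeR adjusted p = 0.000448). All 3 libraries of passage 4 were below all 3 of passage 1 for each of these 4 genes. Fibroblast markers moved the same way between these groups, with 4 of 8 tested markers lower in passage 4, none higher, and sums of 325 to 565 CPM against 1028 to 2369 CPM. The mitochondrially encoded share was 1.95% to 3.33% in passage 4 and 5.60% to 8.57% in passage 1 of the leaders. The part of either in the falls was not tested. SCD, SQLE, TM7SF2, FDPS and FDFT1 were also lower (-0.88 to -0.66; edgeR adjusted p = 0.00263 to 0.0256). LSS, SCAP and FADS2 were higher (1.22, 0.97 and 0.83; edgeR adjusted p = 0.00652, 0.0142 and 0.0453). PMVK and ELOVL6 were not called, with 95% intervals of -0.66 to 0.16 and -0.89 to 0.06. With the offsets 17 members were lower and 2 higher, where 27.5% of genes were called (14.4% higher and 13.1% lower), all 9 lower calls were kept, and FADS2 was not called (0.37, edgeR adjusted p = 0.145). FADS2 also lost its call without any 1 of the 6 libraries (edgeR adjusted p = 0.0528 to 0.158). TM7SF2 lost it without leader replicate 1 or 2 of passage 1 or replicate 1 or 3 of passage 4 (edgeR adjusted p = 0.0507 to 0.104), and SCAP and SCD lost it without replicate 3 of passage 4 (edgeR adjusted p = 0.0801 and 0.0512). Without that library 7 members were lower and 1 higher, where 8.995% of genes were called.

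A straight line over the 4 passages of leaders called 9 members lower and 3 higher, where 21.1% of genes were called (9.38% lower and 11.7% higher). Among called members the slopes per passage were steepest for INSIG1 (-0.56 ± 0.09; edgeR adjusted p = 0.000368), IDI1 (-0.53 ± 0.11; edgeR adjusted p = 0.00368), HMGCS1 (-0.51 ± 0.09; edgeR adjusted p = 0.00124) and HSD17B7 (-0.45 ± 0.07; edgeR adjusted p = 0.000359) among the falls. LSS had the steepest called rise (0.42 ± 0.09; edgeR adjusted p = 0.00348). With the offsets 18 were lower and 3 higher, where 28.0% of genes were called (14.7% higher and 13.3% lower). Pearson's r of the slope with GC content was 0.55 across members without offsets and 0.35 with them. Across all tested genes with a value it was 0.08 without offsets. The calls of FADS2 were lost without passage 1 replicate 3 or passage 4 replicate 3 (edgeR adjusted p = 0.0673 to 0.0677), of SCAP without passage 4 replicate 3 (edgeR adjusted p = 0.0653), and of TM7SF2 without replicate 1 of passage 1 or 4 (edgeR adjusted p = 0.0802 to 0.0964). Leaving out passage 4 replicate 3 gave 9 lower and 1 higher, where 10.4% of genes were called. The means of HMGCS1 show how the fall was spaced, at 90.3, 51.2, 37.6 and 31.1 CPM in passages 1 to 4, with the largest step between the first and the second passage. The fall in this contrast uses the same leaders of passage 1 as their comparison with the parental line.

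**Figure D4:**
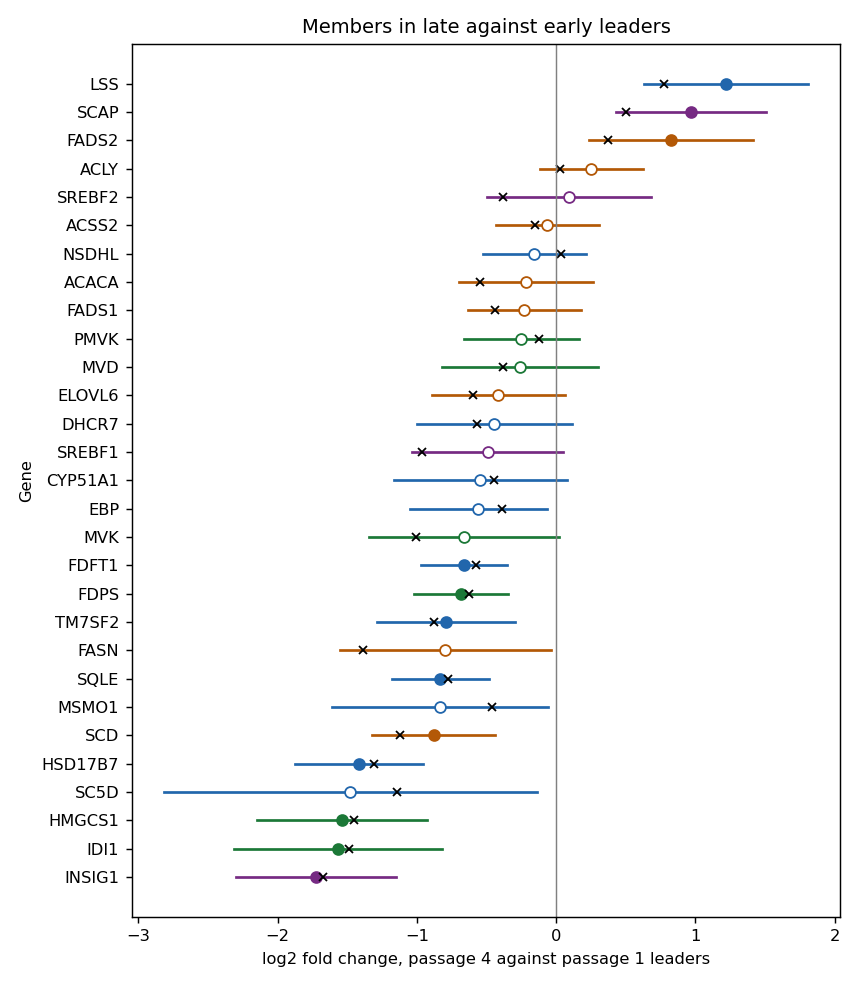
Log2 fold change of leaders of passage 4 against leaders of passage 1 (horizontal axis) for the 29 tested members (rows, coloured by role), with 95% intervals (bars), filled circles where the edgeR adjusted p was under 0.05, and crosses for the fit with GC and length offsets. INSIG1, IDI1, HMGCS1 and HSD17B7 lie lowest among called members, and LSS lies highest, at 1.22 and with offsets at 0.77.

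Other genes of the same pathways, listed by function, were called in part in the same groups. Of all tested genes, 21.5%, 23.2%, 15.1%, 13.8% and 14.8% were higher in laggers and leaders of passages 1 to 4. The shares lower were 17.8%, 22.4%, 14.8%, 10.8% and 12.9%. In laggers, sterol uptake and processing (36.4%), efflux and esterification (28.6%) and other fatty acid synthesis (26.7%) lay below the 39.3% of all genes called. Other sterol synthesis (50%) and fatty acid uptake, storage and oxidation (63.2%) lay above it. Of 6 other sterol synthesis genes, 2 were higher and 1 lower in laggers, and 4, 2, 3 and 2 were higher and none lower in leaders of passages 1 to 4. ERG28, a scaffold of sterol demethylation, was called in each (0.77, 1.14, 0.90, 0.67 and 0.63; edgeR adjusted p = 5.48e-05 to 0.00909). With the offsets the counts of that list were 3, 5, 4, 5 and 4 higher and 1, 1, 1, 0 and 0 lower. Of all tested genes 24.3%, 24.5%, 18.6%, 17.7% and 18.9% were then higher and 21.0%, 21.6%, 15.3%, 14.1% and 15.1% lower. Changes of the single genes named below are from the fit without offsets. Of 11 tested genes of sterol uptake and SREBP processing, 2, 5, 3, 3 and 2 were higher and 2, 3, 0, 1 and 2 lower. The offsets gave 2, 3, 3, 3 and 2 higher and 2, 2, 1, 2 and 3 lower. MYLIP, a ligase that marks lipoprotein receptors for breakdown, rose from 5.04 ± 0.188 CPM in the parental line to 47.2 ± 22.4 in laggers (3.22, edgeR adjusted p = 6.52e-06) and was not called in passage 4 (0.52, edgeR adjusted p = 0.262). Of 7 tested genes of sterol efflux and esterification none was higher without offsets, and 2, 4, 4, 4 and 4 were lower. The offsets gave 0, 0, 1, 0 and 0 higher and 2, 2, 3, 4 and 4 lower. ABCG1 and ABCA1, exporters of cholesterol, fell in leaders of passage 4 to 2.84 ± 0.461 and 1.24 ± 0.781 CPM from 26.2 ± 2.65 and 16.6 ± 2.53 (-3.20 and -3.74; edgeR adjusted p = 0.000216 and 0.000374), and neither was called in laggers (edgeR adjusted p = 0.772 and 0.815). Of 15 other tested genes of fatty acid synthesis and elongation, 0, 2, 2, 1 and 1 were higher and 4, 3, 3, 2 and 4 lower. The offsets gave 0, 2, 3, 2 and 1 higher and 4, 4, 4, 2 and 6 lower. The elongase ELOVL7 rose in each leader group (1.71 to 2.04; edgeR adjusted p = 0.00119 to 0.00349) and was not called in laggers (-0.26, edgeR adjusted p = 0.626). Of 19 tested genes of fatty acid uptake, storage and oxidation, 1, 1, 0, 0 and 0 were higher and 11, 9, 7, 5 and 5 lower. The offsets gave 1, 0, 0, 0 and 2 higher and 9, 7, 7, 6 and 8 lower. PLIN2, a coat protein of lipid droplets, fell from 134 ± 8.54 CPM to between 49.9 ± 7.32 and 60.1 ± 12.7 in the 5 injected groups (-1.42 to -1.15; edgeR adjusted p = 6.41e-05 to 0.000562). CPT1A, which admits fatty acids to mitochondria, fell in laggers and in leaders of passages 1 and 2 (-1.88, -2.11 and -1.23; edgeR adjusted p = 0.000242, 6.87e-05 and 0.00646), and rose between leaders of passages 1 and 4 (1.48, edgeR adjusted p = 0.0037).

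Markers of other cells of a nerve moved with the groups in part. The 10 fibroblast markers summed to 205 to 392 CPM in parental libraries, 1317 to 2241 in laggers, 1028 to 2369, 797 to 1575, 614 to 1454 and 325 to 565 in leaders of passages 1 to 4, with 5 of 8 tested markers higher in laggers and 0 lower. From the same 8 markers 5, 3, 3 and 3 were higher and 2, 0, 0 and 1 lower in the successive leaders. In the injected groups most of the fibroblast sum was COL1A2 and COL3A1, while DCN and LUM averaged at most 9.40 and 8.39 CPM and FAP at most 0.0313. The 10 Schwann cell markers summed to 592 to 823 CPM in parental libraries, 257 to 379 in laggers and 219 to 471 in leaders. S100B and SOX10 averaged at most 0.0838 and 0.128 CPM in any group. Of 4 tested markers on that list, EGR2 was called higher in each injected group, from 0.0415 CPM in the parental line to 10.7 in laggers and 1.56 to 4.31 in leaders. MBP was lower in each, and CNP in laggers and leaders of passage 1. The 7 adipocyte markers summed to at most 45.5 CPM, in a parental library, with ADIPOQ at 0 in all 18 libraries. Endothelial (7 genes), leukocyte (8 genes) and red blood cell (5 genes) markers summed to at most 13.5, 35.2 and 3.29 CPM, apart from 21052 CPM of red blood cell markers in passage 3 leader replicate 2. The leukocyte sum averaged 3.24 CPM in the parental line, 4.802 in leaders of passage 1 and 21.8 in leaders of passage 4. Most of that last sum was ITGAM, called higher in passage 4 than in the parental line and than in passage 1 (3.23 and 3.34; edgeR adjusted p = 0.000633 and 0.000996). PTPRC, at 0 in all parental libraries and in laggers, was called in each leader group at 0.675 to 3.09 CPM, and CD68 was lower in each. The markers named in these sentences were chosen after their values were seen. The part of the fibroblast, Schwann cell, adipocyte, leukocyte and epithelial markers in the changes of sterol and fatty acid genes was not tested. Without the library of largest unaligned share in each group, that passage 3 library and parental replicate 3 among them, members called were 11 higher and 5 lower in laggers (34.7% of all genes), 13 and 8, 9 and 1, 8 and 2, and 4 and 6 in leaders of passages 1 to 4 (37.8%, 21.9%, 18.8% and 20.5%), none between leaders and laggers (0.0666%), and 1 higher and 10 lower between passages 4 and 1 (18.4%).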

How the data were processed

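RNA of 18 MiaPaCa-2 libraries was amplified from 2 ng with the SMART-Seq v4 kit (12 cycles; its products carry no strand mark), and libraries made with 8 more PCR cycles were read as 50-base pairs, per the labels' protocols. The authors deposited 1 table of raw counts per gene, and the submitters' processing notes name cutadapt 1.6, STAR 2.5.0a, HTSeq 0.5.3 and DESeq 1.22.1. A genome build was not given in the sources used here. The 5 entries that name no gene took 27.6% to 60.6% of a library's entries and were left out of library sizes and tests.

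Samples were grouped by title. edgeR 4.0.16 in R 4.3.3 fitted 1 mean per group to all 18 libraries (quasi-likelihood, TMM, filterByExpr on group), which left 12 residual degrees of freedom, a biological coefficient of variation of 35.5% and 16187 genes tested, with 41258 not tested. The members and lists were chosen with earlier results of these data known. Values in every library are given for up to 3 members of each role group with the smallest adjusted p over the comparisons with the parental line, and for members called between leaders and laggers, between passages 4 and 1 or along the trend; of each other pathway list up to 3 genes with the smallest adjusted p in any comparison may be named. Replicates of a group differed by more than sampling noise (chi-square per degree of freedom 19.6 to 219). GC content and exon length came from GENCODE 29 and promoters from RefSeq. The fit with offsets used natural splines with 5 degrees of freedom on GC content and transcript length, known for 98.7% of tested genes. Both fits, with and without offsets, were also run on simulated counts with and without a GC trend, and the outcome is not given here. Alternatives were DESeq2 1.42.0, RLE scaling, no filter, the compared groups alone, no mitochondrially encoded genes, a replicate block, each library left out in turn and, added after the data were seen, the offsets and the removal of the library with the largest unaligned share in each group. The 3-count limit covers counting error only, and PCR reads are not independent molecules.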

Additional observations from a re-analysis of the deposited data

Results flagged for a closer look

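The change from the parental line differed between leaders of passages 4 and 1 for 12 members. This was tested by setting those leader groups directly against each other, and the parental libraries cancel out of that contrast. Lower in passage 4 were INSIG1 (-1.73), IDI1 (-1.57), HMGCS1 (-1.54), HSD17B7 (-1.42), SCD (-0.88), SQLE (-0.83), TM7SF2 (-0.79), FDPS (-0.68) and FDFT1 (-0.66), as log2 fold changes of edgeR called at an adjusted p under 0.05. Higher in passage 4 were LSS (1.22), SCAP (0.97) and FADS2 (0.83). With GC and length offsets 11 of the 12 were called, all but FADS2.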

How the results depend on the processing

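Of 99 calls of single members over the 8 comparisons, 99 were kept with DESeq2, 99 with RLE scaling, 98 without mitochondrially encoded genes, 85 with no filter, 81 with the compared groups alone, 77 without the libraries of largest unaligned share and 76 with GC and length offsets, which added 37 and turned 6 values. With those offsets FASN was at 0.46 and 0.15 in leaders of passages 1 and 2, SCAP at 0.017, 0.62 and 0.52 in passages 1, 2 and 4, and SREBF2 at 0.51 in passage 1. The offsets also gave 3 members between leaders and laggers, 19 between passages 4 and 1, and 21 along the trend (0.605%, 27.5% and 28.0% of all genes). With the compared groups alone 8 members were called in laggers and 5 in passage 3, where the share of all genes called went from 39.3% to 22.9% and from 24.6% to 19.9%. With no filter 9 (3 higher and 6 lower) were called in passage 4 and 2 between leaders and laggers (13.1% and 0.810% of 31738 genes). DESeq2 called 3 between leaders and laggers (2.55%), and without the libraries of largest unaligned share 10 were called in passage 2 (21.9%). The cause was not tested.

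Leaving out 1 library gave 12 to 18 members in laggers (31.5% to 38.2% of all genes), 19 to 22, 9 to 13, 5 to 9 and 10 to 12 in passages 1 to 4 (35.6% to 41.1%, 18.9% to 26.3%, 14.8% to 22.3% and 17.9% to 24.1%), 0 between leaders and laggers in every case (at most 0.309%), 8 to 11 between passages 4 and 1 (8.995% to 16.8%) and 10 to 12 along the trend (10.4% to 19.3%). With a replicate block the counts were 13, 22, 13, 9 and 14, then 0, 11 and 12 in the same order (37.8%, 44.0%, 28.2%, 23.1%, 25.9%, 0.0185%, 18.1% and 19.2%), and 94 of the 99 calls were kept. The labels do not say what an equal replicate number stands for. Libraries with the same number deviated together by a mean r of -0.014 over 45 pairs (-0.41 to 0.40), and 4 of 18 libraries correlated best with their own number. For unequal numbers the mean r was 0.008 over 90 pairs (-0.45 to 0.41). Whether single pairs share a source was not tested. With 3 libraries a group, members near the threshold change sides with single libraries.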
